A study of Mus musculus with 8 samples.

Results

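The genes described here are the 36 aminoacyl-tRNA synthetases of the mouse that were listed by symbol: 20 enzymes of the cytosol and 16 of the mitochondria. They were found by matching the Ensembl identifiers of the expression tables to gene symbols, and all 36 were present among 23318 genes. Total RNA of sorted cells from mouse small-intestinal epithelium was sequenced, with 4 libraries of CD24Mid cells (libraries 1, 3, 5 and 7) and 4 of CD24Neg cells (libraries 2, 4, 6 and 8). Both populations had been depleted of cells carrying CD45, a surface protein of blood cells, and of cells binding Ulex lectin, and neither group carries a treatment or an engineered allele in the labels. The series text calls the 4 libraries of a group biological replicates and also names CD24Mid as CD24low. The sources used here give no strain, age or pooling of animals.

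An aminoacyl-tRNA synthetase joins 1 amino acid to the tRNAs that read its codons, at the cost of ATP, and so supplies the charged tRNAs used by ribosomes. Mitochondria translate their own small set of mRNAs with separate, nuclear-encoded synthetases that are imported after synthesis, which by convention carry a final 2 in the gene name. Gars and Kars are exceptions, since each encodes both the cytosolic and the mitochondrial form, and mitochondrial glutaminyl-tRNA is made by an indirect route that uses an amidotransferase. In the gut, the crypt holds the dividing stem and progenitor cells and the villus holds enterocytes, which absorb nutrients and are replaced continuously.

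Values are the deposited normalised expression values, which are not divided by a gene's length. Cd24a, the gene of the sorting marker, ranged from 2246 to 3693 in CD24Mid and from 287 to 563 in CD24Neg. All 8 enterocyte markers were lower and all 6 markers of crypt stem and cycling cells were higher in CD24Mid, while all 5 goblet cell markers were lower and all 4 enteroendocrine markers higher. The summed level of 6 plasma cell markers was 5653 to 14624 over the CD24Mid libraries and 322 to 758 over the CD24Neg libraries. Of 5 tested, 5 were higher in CD24Mid. Among them, Mzb1, Derl3 and Pou2af1 lay under 10, the filter for testing, in every CD24Neg library. They entered the test through their CD24Mid values and had to differ. The summed level of 6 T cell markers was 89.2 to 246 over the CD24Mid libraries and 424 to 7082 over the CD24Neg libraries. Of these, 5 of 6 were lower in CD24Mid, and the highest sums were in CD24Neg libraries 2 and 8. T cells carry CD45 and were a target of the depletion. Of 5 Paneth cell markers 1 was higher and 4 did not pass, and of 3 tested tuft cell markers 1 was higher and 1 lower. The higher tuft marker, Pou2f3, was under 10 in every CD24Neg library, so it too had to differ. Summed myeloid markers were at 55.9 to 186 over the CD24Mid libraries and 25.5 to 83.7 over the CD24Neg libraries, and 2 of 3 tested were higher in CD24Mid. Summed stromal and endothelial markers reached at most 48.3 in any library. Mitochondrially encoded genes took 8.03 to 9.10% of a CD24Mid library's total and 28.3 to 37.4% of a CD24Neg library's. Depth, estimated from the spacing of the lowest values, came to 17.5 M to 19.6 M reads per CD24Mid library and 12.4 M to 20.7 M reads per CD24Neg library. In sorted populations of mixed cells, fewer cells of a type and less RNA per cell cannot be told apart.

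Most synthetase genes were higher in CD24Mid cells, and both classes shared this. Of the 20 cytosolic enzymes, 12 were higher in CD24Mid, 0 were lower and 8 did not pass an adjusted p of 0.05 (limma, adjusted over 12892 tested genes). Of the 16 mitochondrial enzymes, 12 were higher, 1 was lower and 3 did not pass. The background was broad: 34.3% of all tested genes were called higher in CD24Mid and 34.0% lower. The median log2 difference (CD24Mid minus CD24Neg) was 0.50 over the cytosolic and 0.62 over the mitochondrial enzymes, beside 0.02 over all tested genes. The called members that were higher differed by 1.28-fold to 5.62-fold. More than 2-fold higher were 3 cytosolic and 5 mitochondrial enzymes, against 19.8% of all tested genes. The 8 libraries of a gene separated completely by group, with higher values in CD24Mid, for 11 cytosolic and 11 mitochondrial enzymes, while 32.1% of tested genes did so in that direction. In the other direction this held for 0 cytosolic and 1 mitochondrial enzyme, and for 31.8% of tested genes.

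The size of these counts depends on how libraries are put on one scale. Scaling to totals without the mitochondrially encoded genes moved the median of all tested genes to 0.49 and the share of calls that were higher in CD24Mid from 50.2% to 71.3%. Under it 18 cytosolic and 14 mitochondrial enzymes were called higher, beside 6740 of 12949 tested genes. The cytosolic median less that of all tested genes was 0.48 with either scaling. For the mitochondrial enzymes this excess was 0.60 before and 0.59 after. Without CD24Neg libraries 2 and 8, which held the most T cell marker RNA, 13 cytosolic and 11 mitochondrial enzymes were higher. There, 50.4% of the calls over all tested genes were higher in CD24Mid, which is a share of called and not of tested genes. The median log2 difference there was 0.57 over the cytosolic and 0.76 over the mitochondrial enzymes, beside 0.02 over all 12437 tested genes. The part of plasma cell RNA, myeloid RNA, T cell RNA and the mitochondrial share in these differences was not tested.

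**Figure D1:**
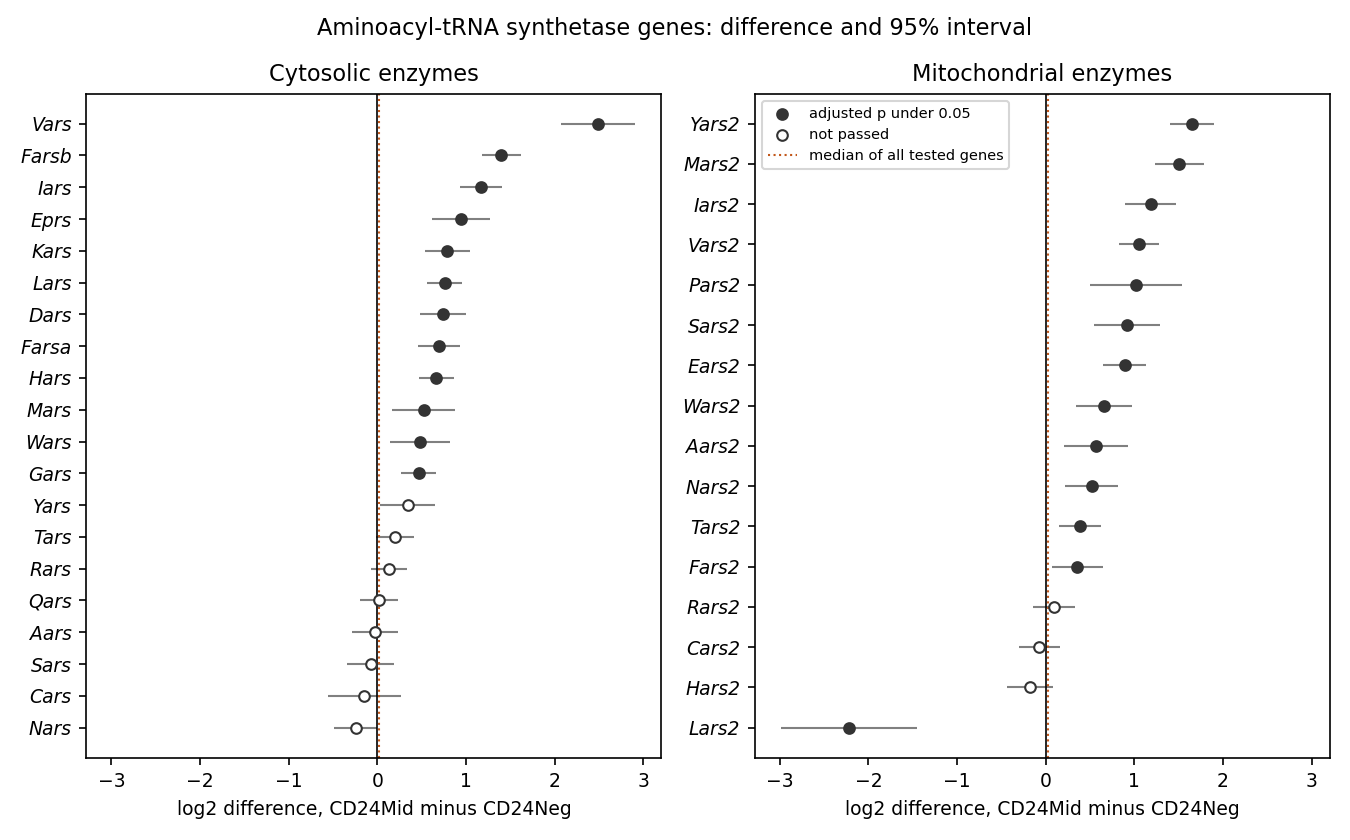
Log2 difference between CD24Mid and CD24Neg for the 20 cytosolic (left) and 16 mitochondrial (right) synthetase genes, with 95% intervals from limma. Filled points passed an adjusted p of 0.05, open points did not, and the dotted line is the median of all tested genes at 0.02. Vars at 2.49 and Lars2 at -2.22 lie farthest from 0.

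Promoters of several cytosolic synthetases hold letters that match known short motifs, and 6 of them are shown so that the letters can be set beside the values of the same genes. TGATGNAAN is the form searched for the amino acid response element, bound by Atf4 and its partners, and CACGTG is the E-box bound by Myc and related factors. Both strands of the window from 250 bases before to 50 bases after the RefSeq start (GRCm38.p6) were searched, and no match of one motif overlapped a match of the other. Promoters were matched for 13 of 20 cytosolic and 14 of 16 mitochondrial enzymes. The amino acid response element was in 5 of the 13 cytosolic promoters (Aars, Gars, Iars, Tars and Yars) and in 0 of the 14 mitochondrial ones, against 4.496% of 27025 promoters in all. CACGTG was in 4 of 13 cytosolic promoters (Aars, Farsb, Iars and Tars) and in 1 of 14 mitochondrial ones (Ears2), against 8.093% of all. Each sequence runs 5′ to 3′ on the gene's strand, with matches to either motif on either strand in capitals.
Aars (chr8:111033592-111033891, plus strand): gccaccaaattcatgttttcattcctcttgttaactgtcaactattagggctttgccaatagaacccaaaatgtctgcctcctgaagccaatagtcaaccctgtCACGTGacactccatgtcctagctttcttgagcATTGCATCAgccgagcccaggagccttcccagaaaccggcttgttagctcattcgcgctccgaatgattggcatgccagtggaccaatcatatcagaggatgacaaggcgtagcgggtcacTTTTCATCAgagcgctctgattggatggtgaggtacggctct
Gars (chr6:55037751-55038050, plus strand): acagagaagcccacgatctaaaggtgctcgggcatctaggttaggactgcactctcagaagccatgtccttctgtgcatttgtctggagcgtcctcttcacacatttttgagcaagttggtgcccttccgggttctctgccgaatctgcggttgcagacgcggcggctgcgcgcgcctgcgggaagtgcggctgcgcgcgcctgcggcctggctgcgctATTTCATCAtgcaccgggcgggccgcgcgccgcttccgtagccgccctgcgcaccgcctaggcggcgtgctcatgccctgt
Iars (chr13:49681880-49682179, plus strand): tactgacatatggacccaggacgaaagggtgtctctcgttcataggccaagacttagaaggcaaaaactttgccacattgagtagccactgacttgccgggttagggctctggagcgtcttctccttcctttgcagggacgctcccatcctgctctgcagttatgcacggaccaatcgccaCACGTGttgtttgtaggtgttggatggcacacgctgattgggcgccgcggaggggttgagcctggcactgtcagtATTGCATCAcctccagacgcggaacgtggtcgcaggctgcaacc
Tars (chr15:11399609-11399908, minus strand): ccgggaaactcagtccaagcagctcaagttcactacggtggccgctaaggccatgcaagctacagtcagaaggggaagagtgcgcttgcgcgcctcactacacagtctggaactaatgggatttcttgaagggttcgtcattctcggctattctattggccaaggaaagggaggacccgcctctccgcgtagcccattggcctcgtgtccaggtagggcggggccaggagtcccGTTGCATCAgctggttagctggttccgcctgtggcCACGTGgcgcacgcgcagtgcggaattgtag
Yars (chr4:129189653-129189952, plus strand): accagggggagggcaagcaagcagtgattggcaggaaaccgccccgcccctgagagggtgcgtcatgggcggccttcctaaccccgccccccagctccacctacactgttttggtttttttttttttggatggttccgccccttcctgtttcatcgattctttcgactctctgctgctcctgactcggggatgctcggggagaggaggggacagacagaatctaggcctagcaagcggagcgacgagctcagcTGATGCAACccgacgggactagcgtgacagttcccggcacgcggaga
Farsb (chr1:78488848-78489147, minus strand): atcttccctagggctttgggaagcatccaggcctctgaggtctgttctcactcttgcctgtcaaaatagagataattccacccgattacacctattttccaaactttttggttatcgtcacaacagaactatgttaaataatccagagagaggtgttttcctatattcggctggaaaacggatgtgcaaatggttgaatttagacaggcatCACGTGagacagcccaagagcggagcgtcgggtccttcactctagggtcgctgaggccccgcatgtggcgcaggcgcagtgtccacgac
Of the 5 genes with an amino acid response element, Gars and Iars were higher in CD24Mid, and Aars, Tars and Yars did not pass. Their median log2 difference was 0.34. Iars and Farsb, with CACGTG, were higher, while Aars and Tars, which also hold it, did not pass. A match is a description of the letters and not of binding.

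Vars, which encodes the valyl-tRNA synthetase, differed most. Its values were 4258, 3945, 3587 and 4214 in the CD24Mid libraries and 711, 837, 468 and 908 in the CD24Neg libraries. Every CD24Mid library was above 908, the highest CD24Neg value, and the lowest of all was CD24Neg library 6. The difference was 5.62-fold (log2 2.49 ± 0.19 (SE), adjusted p = 1.86e-06; limma). Per kilobase of mRNA, Vars was at 967 ± 74.6 (SD, n = 4) in CD24Mid, 5th of the 36 genes, and at 177 ± 46.7 in CD24Neg, 22nd. The valyl enzyme is the synthetase known to bind elongation factor 1, the factor that carries charged tRNA to the ribosome. All 4 tested subunit genes of that factor were also higher in CD24Mid, with a median log2 difference of 1.12. Of all tested genes, 34.3% were called higher, and their median was 0.02. Eef1g, a structural subunit, had means of 12655 ± 1737 against 5192 ± 670.3 (SD, n = 4 each; log2 1.28 ± 0.14 (SE), adjusted p = 1.94e-05, limma). Eef1b2 was 1.31 and Eef1d 0.95 higher on the log2 scale; both encode nucleotide exchange subunits.

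The enzyme for phenylalanine is built from 2 different chains, encoded by Farsa and Farsb. Farsb stood at 1581, 1901, 1746 and 1679.9 in the CD24Mid libraries and 641, 669, 589 and 727 in the CD24Neg libraries. Its groups were far apart, and it was 2.63-fold higher in CD24Mid (log2 1.40 ± 0.099 (SE), adjusted p = 1.32e-06; limma). Farsa had means of 628 ± 53.4 against 387 ± 36.8 (SD, n = 4 each), a 1.62-fold difference (log2 0.70 ± 0.11 (SE), adjusted p = 0.00021; limma), also without overlap. Both chains were higher, with non-overlapping 95% intervals of 1.17 to 1.62 for Farsb and 0.46 to 0.94 for Farsa. Farsb shares 248 exonic bases with Sgpp2 on the other strand, and whether counting used strand is not given in the sources used here. Among other members, Aars shares 1326 exonic bases with Exosc6 on the same strand, and Exosc6 is not among the measured genes. Fars2 shares 501 with Nrn1, Cars2 422 with Naxd and Nars2 284 with C230038L03Rik, each on the other strand.

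A set of 8 cytosolic synthetases sits with 3 scaffold proteins in the multisynthetase complex: those for leucine, methionine, isoleucine, glutamine, arginine, lysine and aspartate, and Eprs, which is bifunctional for glutamate and proline. Of these 8, 6 were higher in CD24Mid and 0 lower, with a median log2 difference of 0.75. Of the 12 cytosolic enzymes outside the complex, 6 were higher and 0 lower, with a median of 0.40. The difference between these lists was not tested. Over all tested genes, 34.3% were called higher and 34.0% lower, with a median of 0.02.

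Within the complex, Iars had the largest difference. Its values were 1566, 1628, 1725 and 2010.2 in the CD24Mid libraries and 713, 717, 809.9 and 830.4 in the CD24Neg libraries. The groups did not overlap, and CD24Mid library 7 was the highest (log2 1.17 ± 0.11 (SE), adjusted p = 6.18e-06; limma). Eprs was read at 1806, 2021, 2332 and 2651 in the CD24Mid libraries and 949, 1102, 1159 and 1372 in the CD24Neg libraries. Its groups did not overlap either, although the CD24Mid libraries were spread from 1806 to 2651 (log2 0.94 ± 0.15 (SE), adjusted p = 0.000257; limma). Lars, for leucine, had values of 976, 1053, 952 and 1100.3 in the CD24Mid libraries and 615, 585, 566 and 646 in the CD24Neg libraries. These were tightly grouped and differed 1.69-fold (log2 0.76 ± 0.09 (SE), adjusted p = 3.78e-05; limma).

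Kars, for lysine in both compartments, had means of 2417 ± 198 against 1404 ± 175 (SD, n = 4 each; log2 0.79 ± 0.11 (SE), adjusted p = 0.000135, limma). Dars, for aspartate, had means of 1038 ± 109 against 622 ± 72.5 (log2 0.74 ± 0.12 (SE), adjusted p = 0.000286, limma). Neither gene's groups overlapped. Mars, for methionine, was at 924, 939, 729 and 974 in the CD24Mid libraries and 775, 579, 472 and 679 in the CD24Neg libraries. CD24Mid library 5 lay below CD24Neg library 2, so the ranges overlapped, and the difference was smaller (log2 0.52 ± 0.16 (SE), adjusted p = 0.0142; limma). Mars shares 68 exonic bases with Ddit3 on the other strand, a gene that was lower in CD24Mid.

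The other members of the complex did not pass. Qars, for glutamine, read 3075, 3021, 2589 and 2644 in the CD24Mid libraries and 2984, 2680.0, 2802 and 2731 in the CD24Neg libraries. The ranges were nearly the same, with a 95% interval of the log2 difference of -0.20 to 0.23. Rars, for arginine, read 1666, 1561, 1628 and 1716 in the CD24Mid libraries and 1537, 1364, 1456 and 1644 in the CD24Neg libraries. The lowest values were in CD24Neg, the ranges overlapped, and the interval was -0.067 to 0.33. Both passed as higher when libraries were scaled to totals without the mitochondrially encoded genes, at 0.48 and 0.60.

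Of the 3 scaffold genes, 2 were higher in CD24Mid and 1 did not pass, beside 34.3% of all tested genes called higher. Eef1e1, which encodes the scaffold protein also called AIMP3, had means of 278 ± 24 against 148 ± 22 (SD, n = 4 each; log2 0.92 ± 0.14 (SE), adjusted p = 0.000232, limma). Aimp2 differed by 0.34 ± 0.095 (SE), adjusted p = 0.00972 on the log2 scale (limma). Aimp1 had means of 893 ± 63.7 against 777 ± 61.4 and did not pass (adjusted p = 0.0856, limma). Without CD24Neg libraries 2 and 8, 1 of the 3 was higher.

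Outside the complex, Hars, for histidine, read 748, 775, 704 and 766 in the CD24Mid libraries and 433, 487, 463 and 503 in the CD24Neg libraries. It was 1.59-fold higher in CD24Mid without overlap (log2 0.67 ± 0.089 (SE), adjusted p = 8.39e-05; limma). Gars, for glycine in both compartments, had means of 1687 ± 91 against 1223 ± 75.1 (SD, n = 4 each; log2 0.46 ± 0.088 (SE), adjusted p = 0.000895, limma). Wars, for tryptophan, had means of 1442 ± 135 against 1045 ± 217. The groups of Gars and of Wars did not overlap, but the difference of Wars was near the threshold (log2 0.48 ± 0.15 (SE), adjusted p = 0.0161, limma) and reached an adjusted p of 0.0508 with no filter on low values.

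Yars, for tyrosine, read 666, 681, 664 and 644 in the CD24Mid libraries and 668, 420.4, 466 and 575 in the CD24Neg libraries. CD24Neg library 2 was inside the CD24Mid range, and the difference did not pass (log2 0.34 ± 0.14 (SE), adjusted p = 0.0522; limma). Without that library it did, at 0.44 with an adjusted p of 0.00873 (limma). Tars, for threonine, was measured at 1290.3, 1220.4, 1321 and 1491 in the CD24Mid libraries and 1140.4, 1056, 1189 and 1233 in the CD24Neg libraries. CD24Neg library 8 reached into the CD24Mid range, and the interval was -0.011 to 0.42.

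The remaining cytosolic enzymes had lower means in CD24Mid than in CD24Neg, and none passed. Aars, for alanine, read 1567, 1561, 1389.5 and 1627 in the CD24Mid libraries and 1764, 1489.8, 1299 and 1746 in the CD24Neg libraries. The CD24Neg values lay on both sides of CD24Mid, with an interval of -0.29 to 0.23. Sars, for serine, was at 1562, 1607, 1228 and 1351 in the CD24Mid libraries and 1763, 1473, 1378 and 1437 in the CD24Neg libraries. Its interval was -0.34 to 0.19, and CD24Neg library 2 held the highest value.

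Cars, for cysteine, had values of 441, 425, 396 and 491 in the CD24Mid libraries and 612, 354, 413 and 618 in the CD24Neg libraries. CD24Neg libraries 2 and 8 were high and 4 was low, and the interval was the widest of the cytosolic genes that did not pass, at -0.56 to 0.26. Nars, for asparagine, read 3188, 3032, 2958 and 3567 in the CD24Mid libraries and 3646, 3350.0, 3892 and 4223 in the CD24Neg libraries. Most CD24Neg values were above most CD24Mid values, but CD24Neg library 4 was below CD24Mid library 7 (log2 -0.24 ± 0.11 (SE), adjusted p = 0.0664; limma). Leaving out CD24Neg library 4 brought Nars below the threshold, at -0.30 with an adjusted p of 0.0463. Under scaling to totals without the mitochondrially encoded genes the signs of Aars, Sars, Cars and Nars turned positive.

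Synthetases fall into 2 structural families. Of the 9 class I cytosolic enzymes, which share a Rossmann-fold catalytic domain, 5 were higher, and of the 10 class II enzymes, built on an antiparallel sheet, 6 were higher; Eprs holds both kinds. Among the mitochondrial enzymes, 6 of 9 in class I were higher and 1 lower, and 6 of 7 in class II were higher. Over all tested genes, 34.3% were called higher and 34.0% lower, and the difference between the structural families was not tested. Summed over the 20 genes, cytosolic synthetase expression was 30786 to 33975 over the CD24Mid libraries and 21812 to 24388 over the CD24Neg libraries. The summed level was 1.42 times as high in CD24Mid.

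**Figure D2:**
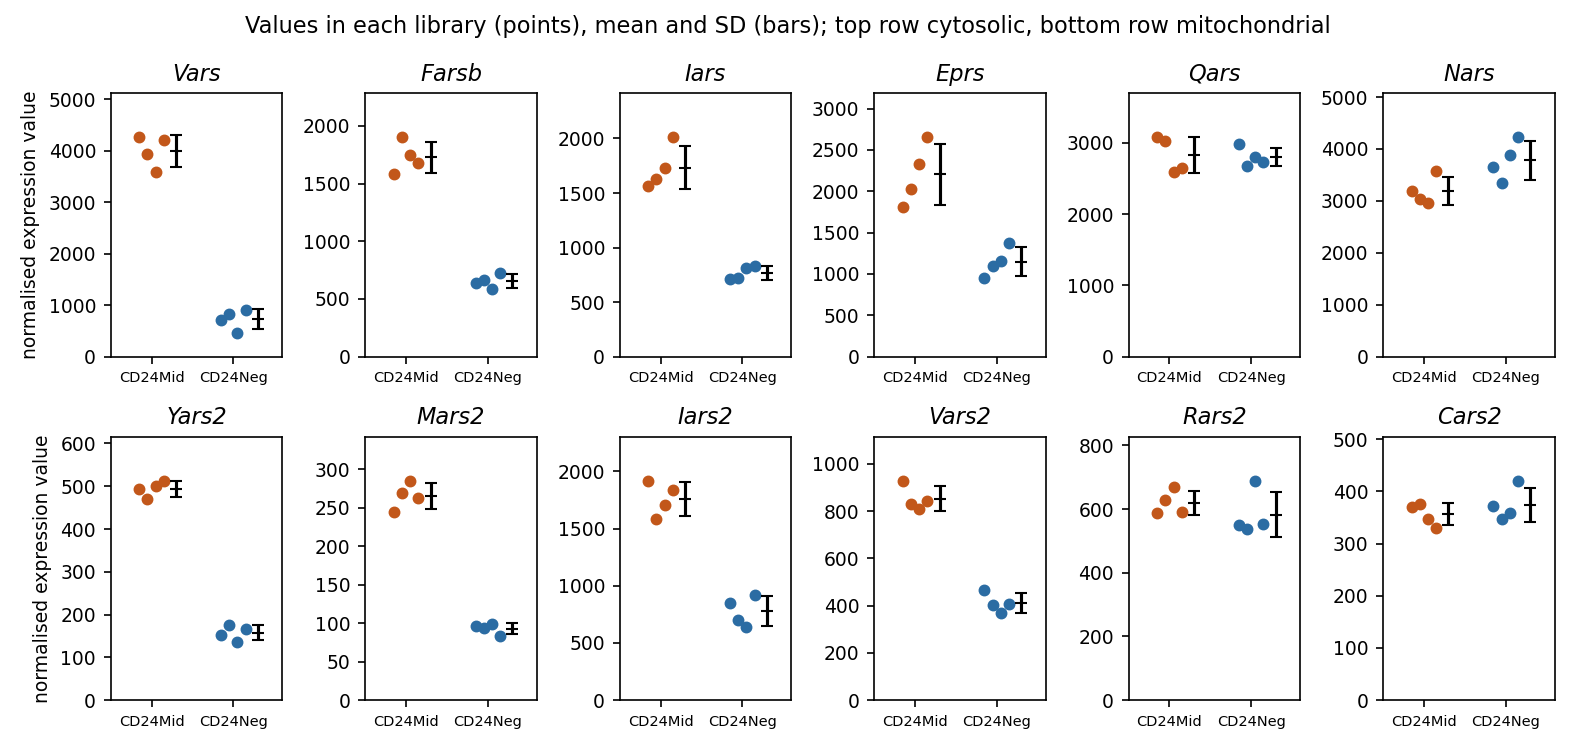
Normalised expression value in each library for 6 cytosolic (top) and 6 mitochondrial (bottom) synthetase genes, from axes starting at 0, with mean and SD beside the points (n = 4 per group). In Vars, Farsb, Iars, Eprs, Yars2, Mars2, Iars2 and Vars2 the groups do not overlap, whereas in Qars, Nars, Rars2 and Cars2 they do.

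Among the mitochondrial enzymes, Yars2, for tyrosine, differed most in the higher direction. Its values were 493, 469.7, 499 and 513 in the CD24Mid libraries and 153, 176, 136 and 165 in the CD24Neg libraries. The lowest CD24Mid library was far above the highest CD24Neg library, and the difference was 3.14-fold (log2 1.65 ± 0.11 (SE), adjusted p = 1.06e-06; limma). Mars2, for methionine, had values of 244, 269, 285 and 263 in the CD24Mid libraries and 95.9, 94.1, 98.8 and 83.6 in the CD24Neg libraries. It was 2.84-fold higher without overlap (log2 1.51 ± 0.12 (SE), adjusted p = 3.07e-06; limma), at the lowest level per kilobase of all 36 genes in both groups, 23.5 ± 1.49 in CD24Mid and 8.24 ± 0.585 in CD24Neg (SD, n = 4 each).

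Iars2, for isoleucine, read 1917, 1583, 1702 and 1839.6 in the CD24Mid libraries and 851, 701, 643 and 922 in the CD24Neg libraries. The groups did not overlap (log2 1.19 ± 0.13 (SE), adjusted p = 2.08e-05; limma). Its transcript shares 2034 exonic bases with Rab3gap2 on the opposite strand, and Rab3gap2 was lower in CD24Mid (log2 difference -1.01). Vars2, for valine, had values of 928, 830.1, 810.1 and 842 in the CD24Mid libraries and 467, 405, 367 and 409 in the CD24Neg libraries. The difference was 2.07-fold (log2 1.05 ± 0.10 (SE), adjusted p = 8.47e-06; limma), and 465 of its exonic bases are shared with the antisense gene Gm20483.

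A further 7 mitochondrial enzymes had higher values in every CD24Mid library than in any CD24Neg library. Pars2, for proline, had means of 147 ± 28.4 against 73.6 ± 20.7 (SD, n = 4 each; log2 1.01 ± 0.23 (SE), adjusted p = 0.00302, limma). Sars2, for serine, was read at 379, 393, 284 and 307 in the CD24Mid libraries and 212, 196, 138 and 176 in the CD24Neg libraries. CD24Mid library 5 was the lowest of its group and still above every CD24Neg library (log2 0.92 ± 0.17 (SE), adjusted p = 0.000693, limma).

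Ears2, for glutamate, had means of 399.7 ± 26.3 against 216 ± 18.8, a 1.85-fold difference. Wars2, for tryptophan, had means of 236 ± 22.7 against 149.6 ± 20.7, and Aars2, for alanine, 389.6 ± 51.6 against 264 ± 52. Nars2, for asparagine, had means of 251 ± 20.6 against 176 ± 25. All 4 passed, with log2 differences from 0.52 to 0.89 and adjusted p from 4.77e-05 to 0.00987 (limma). Without CD24Neg libraries 2 and 8, Nars2 no longer did (adjusted p = 0.0549, limma).

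Tars2, for threonine, had means of 919 ± 99.2 against 699 ± 54.5 (SD, n = 4 each; log2 0.39 ± 0.11 (SE), adjusted p = 0.0078, limma) without overlap. Fars2, for phenylalanine, which works as a single chain in mitochondria, had values of 707, 635, 553 and 509 in the CD24Mid libraries and 548, 446, 435 and 442 in the CD24Neg libraries. CD24Neg library 2 lay among the lower CD24Mid values, and the difference was near the threshold (log2 0.36 ± 0.13 (SE), adjusted p = 0.0311; limma). It did not pass when CD24Mid library 1 or 3 or CD24Neg library 4, 6 or 8 was left out, with adjusted p (limma) from 0.0721 to 0.0785.

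The other mitochondrial enzymes for arginine, cysteine and histidine did not pass. Rars2 read 587, 627, 668 and 589 in the CD24Mid libraries and 549, 539, 689 and 553 in the CD24Neg libraries. CD24Neg library 6 held the highest value of all, and the interval of the log2 difference was -0.15 to 0.33. Cars2 was at 370.0, 376, 346 and 331 in the CD24Mid libraries and 372, 346, 358 and 420.2 in the CD24Neg libraries. The ranges overlapped, CD24Neg library 8 was the highest, and the interval was -0.30 to 0.16. Hars2 had values of 534, 488, 473 and 497 in the CD24Mid libraries and 592, 476, 535 and 665 in the CD24Neg libraries. CD24Neg libraries 2 and 8 were highest, and the interval was -0.44 to 0.08. The signs of Cars2 and Hars2 turned positive under scaling to totals without the mitochondrially encoded genes.

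Lars2, the mitochondrial leucyl-tRNA synthetase, was the only member called lower in CD24Mid. Its values were 36066, 47658, 28881 and 20116 in the CD24Mid libraries and 199181, 154087, 76939 and 200211 in the CD24Neg libraries. The groups did not overlap, and CD24Neg library 6 was the lowest of its group and CD24Mid library 7 the lowest of all. The log2 difference was -2.22 ± 0.34 (SE), adjusted p = 0.000236 (limma), a 4.66-fold lower level. Under quantile normalization it was -0.79 and did not pass (adjusted p = 0.0616, limma). Its level was unlike that of any other member: 8521 ± 2991 per kilobase in CD24Mid and 40474 ± 14874 in CD24Neg (SD, n = 4 each), first in both, with Nars second at 1161 ± 98.8 and 1376 ± 135.

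RNAs that normally lack a long poly(A) tail, and ribosomal RNAs, were set beside Lars2. These RNAs were chosen after the data had been seen. Rn7sk, a small nuclear RNA that regulates transcription elongation, read 97.1, 133, 46.7 and 44.9 in the CD24Mid libraries and 1764, 615, 319 and 1389 in the CD24Neg libraries. Rpph1, the RNA of ribonuclease P, read 16.6, 20.4, 9.22 and 14.2 in the CD24Mid libraries and 303, 100.3, 76.3 and 266 in the CD24Neg libraries. Both were highest in CD24Neg libraries 2 and 8 and lowest of that group in library 6, as was Lars2.

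The ribosomal RNAs of mitochondria were also lower in CD24Mid. mt-Rnr2, the large one, read 10852, 13833, 8716 and 9103 in the CD24Mid libraries and 119093, 130612, 104027 and 155336 in the CD24Neg libraries. mt-Rnr1, the small one, was lower in CD24Mid (log2 difference -3.85). Within CD24Neg, both ribosomal RNAs were highest in library 8 and lowest in library 6, as was Lars2. For both, library 4 was above library 2, whereas for Lars2 it was below. Within CD24Mid, library 3 was the highest for Lars2, mt-Rnr2, Rn7sk and Rpph1 alike. The lowest was library 7 for Lars2 and Rn7sk but library 5 for mt-Rnr2 and Rpph1. Rmrp, another RNA polymerase III product, had overlapping ranges and an adjusted p of 0.0469 (limma), a call lost when CD24Mid library 1, 5 or 7 or CD24Neg library 2, 4 or 8 was left out. No stretch of 50 or more bases at 95% identity was shared between Lars2 transcripts and mt-Rnr1 or mt-Rnr2. Among the other genes of the expression tables, the longest such stretch was 72 bases, with Gm15564. Only annotated transcripts were searched, and stretches shared with genes outside the tables were not kept. Whether the Lars2 values and those of these RNAs have a common source was not tested.

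**Figure D3:**
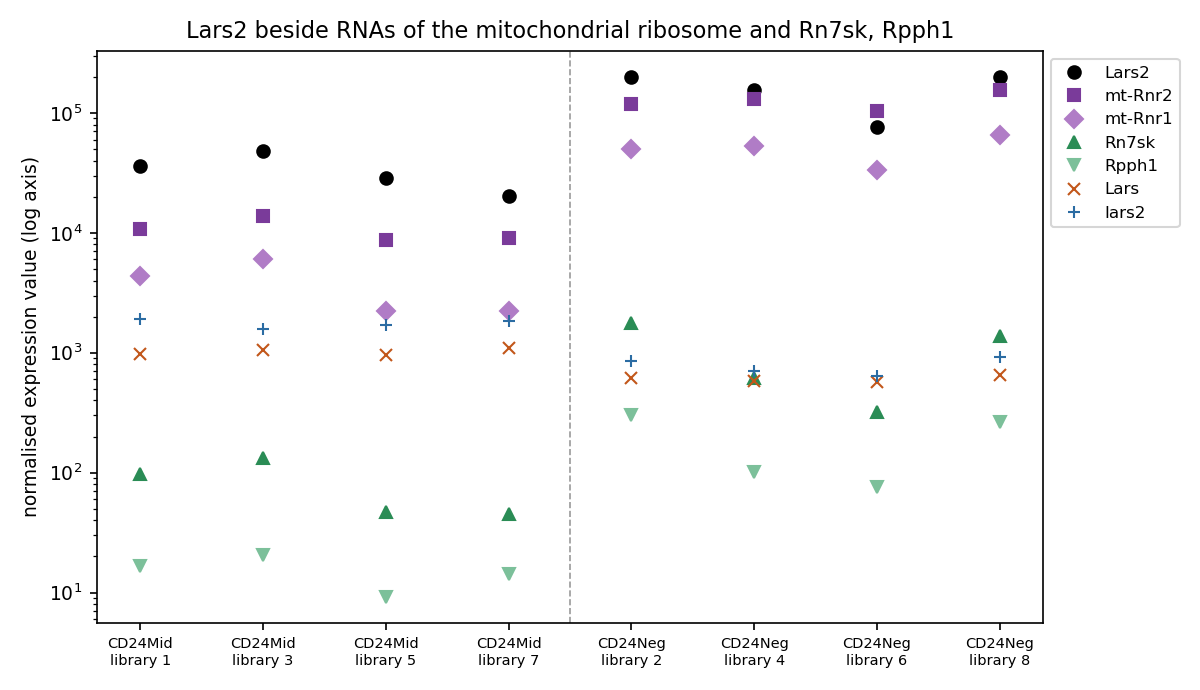
Normalised expression value (log axis) in each of the 8 libraries for Lars2, the mitochondrial ribosomal RNAs mt-Rnr1 and mt-Rnr2, the small RNAs Rn7sk and Rpph1, and the synthetases Lars and Iars2. Lars2 and the 4 RNAs are lower in every CD24Mid library than in any CD24Neg library, whereas Lars and Iars2 are higher.

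Without Lars2, the mitochondrial enzymes summed to 7798 to 8606 over the CD24Mid libraries and 4834 to 5493 over the CD24Neg libraries, and the sum was 1.57 times as high in CD24Mid. Their median log2 difference was 0.66. With Lars2 the sum was 28055 to 55829 over the CD24Mid libraries and 81773 to 205681 over the CD24Neg libraries, so that 1 gene turned the direction of the total. The 17 measured genes of the mitochondrial genome went the other way in total, taking 8.58 ± 0.518% of the values in CD24Mid and 32.6 ± 4.63% in CD24Neg (SD, n = 4 each).

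A cytosolic and a mitochondrial gene could be compared within each library for 16 pairs, Eprs entering 2 of them. A ratio within a library is not moved by a scaling factor common to its genes. The log2 ratio of cytosolic to mitochondrial expression separated the groups completely in 9 of 16 pairs, lower in CD24Mid in 5 and higher in 4. Each of the 9 reached the smallest p that 4 against 4 libraries allow (0.0286, exact two-sided permutation test), which became 0.0508 after Benjamini-Hochberg adjustment over the 16 pairs. None therefore passed that adjustment, and the design could not have given a smaller raw value.

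For tyrosine, serine, methionine, asparagine and alanine, the ratio was lower in every CD24Mid library than in any CD24Neg library. Yars over Yars2 ranged from 0.33 to 0.53 in CD24Mid and 1.26 to 2.13 in CD24Neg on the log2 scale, a difference of -1.31. Sars over Sars2 was 2.03 to 2.13 and 2.90 to 3.31, a difference of -0.99. Mars over Mars2 was 1.35 to 1.92 and 2.25 to 3.01, a difference of -0.98. For serine the cytosolic gene did not pass while the mitochondrial one was higher. The differences for asparagine and alanine were -0.76 and -0.60.

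For leucine, valine, histidine and phenylalanine, the ratio was higher in every CD24Mid library than in any CD24Neg library. Vars over Vars2 ranged from 2.15 to 2.32 in CD24Mid and 0.35 to 1.15 in CD24Neg, a difference of 1.44, although Vars2 was itself higher in CD24Mid. Hars over Hars2 was 0.49 to 0.67 and -0.45 to 0.033, a difference of 0.84; these genes lie head to head and share 195 exonic bases on opposite strands. Lars over Lars2 ranged from -5.50 to -4.19 over the CD24Mid libraries and -8.34 to -7.09 over the CD24Neg libraries. Its difference of 2.98 was more than the difference of Lars alone. Farsa over Fars2 differed by 0.34. That pair used Farsa alone, while Farsb, the other chain of the cytosolic enzyme, differed more than Farsa (log2 1.40 against 0.70). In the other 7 pairs (Tars, Wars, Cars, Iars and Rars with their counterparts, and Eprs with Ears2 and with Pars2) the ranges overlapped, with raw p from 0.229 to 0.857 (exact two-sided permutation test). For isoleucine, both enzymes were higher by nearly the same amount. Quantile normalization, which does change ratios, left 6 pairs without overlap, 2 lower and 4 higher in CD24Mid. The 3 lost were all of the lower kind: Mars over Mars2 at -0.59, Nars over Nars2 at -0.086 and Aars over Aars2 at -0.15, with raw p of 0.114, 0.857 and 0.0857 (exact two-sided permutation test).

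**Figure D4:**
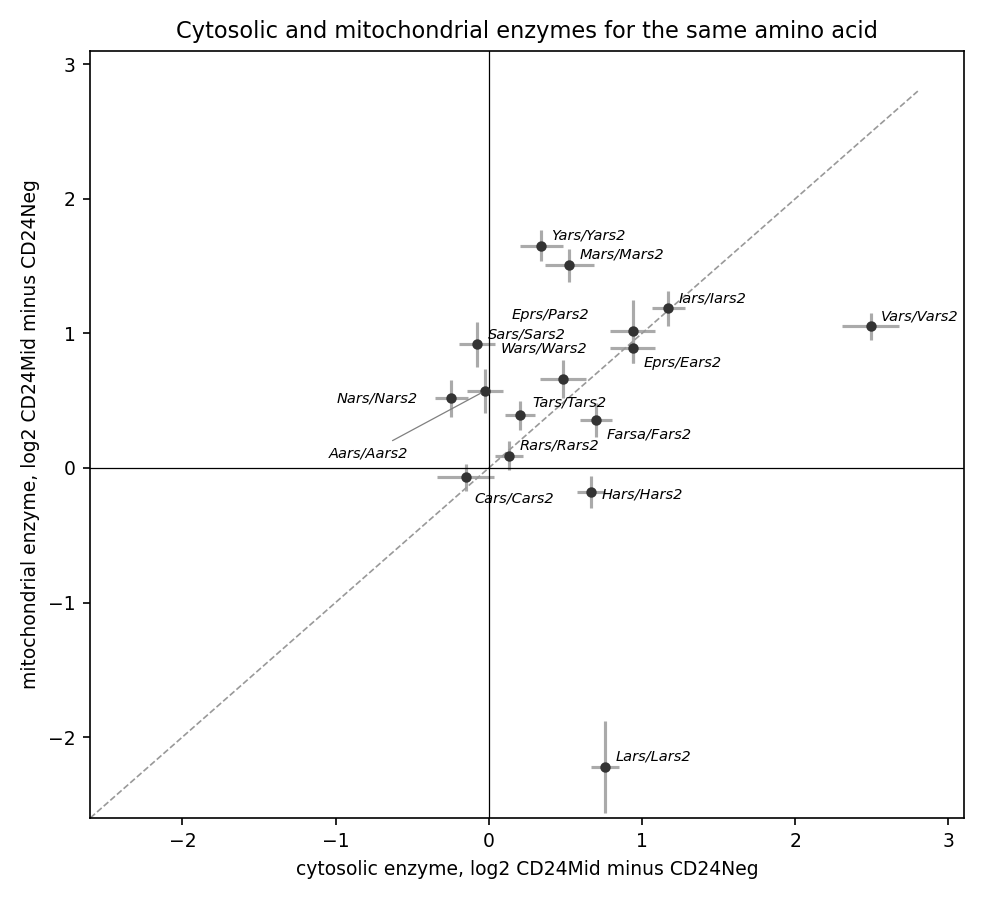
Log2 difference (CD24Mid minus CD24Neg) of the cytosolic enzyme on the x axis against that of the mitochondrial enzyme for the same amino acid on the y axis, 1 point per pair with SE bars from limma; the dashed line marks equal differences. Yars/Yars2 and Sars/Sars2 lie above the line, Vars/Vars2 and Hars/Hars2 below it, and Lars/Lars2 far below.

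Other genes of the tRNA pathway were counted in the same way, beside the 34.3% and 34.0% of all tested genes called higher and lower. Of 31 tested genes of tRNA processing and modification, 24 were higher, 0 lower and 7 did not pass, with a median log2 difference of 1.10. Among the 24, Rpp25 lay under the filter of 10 in every CD24Neg library, at 1.14 to 4.47. It entered the test through its CD24Mid values and had to differ. Pus7, a pseudouridine synthase, read 455, 553, 653 and 568 in the CD24Mid libraries and 68.3, 93.5, 71 and 112 in the CD24Neg libraries. No CD24Neg library came near CD24Mid (log2 2.70 ± 0.18 (SE), adjusted p = 1.07e-06; limma). Nsun2, a tRNA cytosine methyltransferase, had means of 2313 ± 148 against 960.1 ± 79.6 (SD, n = 4 each) and Trmt61a, the catalytic subunit of a tRNA adenosine methyltransferase, 271 ± 23.7 against 67.1 ± 12. Quantile normalization gave 22 higher and 1 lower.

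RNA polymerase III, which transcribes tRNA genes, was split. Of 17 tested subunits and factors, 9 were higher, 4 lower and 4 did not pass, with a median of 0.44. Polr3k and Polr3e, which encode subunits, were higher by 0.84 and 0.89 on the log2 scale. Maf1, the repressor of the polymerase, was lower, with values of 869, 921, 751 and 738 in the CD24Mid libraries and 1405, 1452, 1473 and 1333 in the CD24Neg libraries. Its groups did not overlap (log2 -0.79 ± 0.10 (SE), adjusted p = 5.58e-05; limma). Gtf3c1, which encodes a DNA-binding subunit of the initiation factor TFIIIC, was lower (log2 difference -0.67) and lost its call under scaling to totals without the mitochondrially encoded genes (adjusted p = 0.0628, limma), where 1 of the 17 remained lower and 13 were higher.

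Quality control of charged tRNA and the selenocysteine route gave 5 higher, 3 lower and 1 not passing of 9, with a median of 0.66. Dtd1, which removes D-amino acids from tRNA, was higher (172 ± 24.7 against 39.2 ± 7.81; SD, n = 4 each). Eefsec, the elongation factor for selenocysteine, was higher by 1.10 on the log2 scale, while Sephs2, which makes the selenium donor, was lower (log2 difference -0.84). Dtd2, another D-amino-acid deacylase, did not pass (adjusted p = 0.0759, limma). Under scaling to totals without the mitochondrially encoded genes 5 of the 9 were higher and 1 lower, and under quantile normalization 4 and 4.

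In mitochondria, 3 of the 4 genes of the glutaminyl and formylmethionyl routes were higher and 1 lower. Gatc, Gatb and Qrsl1, the 3 subunits of the amidotransferase that makes glutaminyl-tRNA, were higher by 0.69, 0.69 and 0.53 on the log2 scale. Mtfmt, which formylates the initiator methionyl-tRNA, was lower (log2 difference -0.41), but its sign turned under scaling to totals without the mitochondrially encoded genes, at 0.054. It stood beside Mars2, the enzyme that charges that tRNA, which was higher.

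Of 11 tested genes of mitochondrial tRNA maturation, 7 were higher, 1 lower and 3 did not pass, with a median of 0.82. Pus1, a pseudouridine synthase, Trit1, an isopentenyl transferase, and Mto1, a uridine-modifying enzyme, were higher by 0.91, 0.96 and 0.83. Nsun3, a methyltransferase of mitochondrial methionine tRNA, was lower (log2 difference -0.72), a call lost under both scalings to totals. Gtpbp3, Trmu and Cdk5rap1, further modifying enzymes, did not pass, with log2 differences of 0.20, 0.25 and -0.14.

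Of 10 mitochondrial translation factors, 5 were higher, 1 lower and 4 did not pass, with a median of 0.30. Gfm1, an elongation factor, Mtrf1, a release factor, and Tsfm, the exchange factor of mitochondrial EF-Tu, were higher by 0.62, 1.28 and 1.07. Mtif3, an initiation factor, was lower (log2 difference -0.59), a call lost under both scalings to totals, where 9 of the 10 were higher.

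Uncharged tRNA acts through the amino acid response, by way of the kinase GCN2 and the factor ATF4. Of 18 genes of this response tested, 10 were higher, 6 lower and 2 did not pass, with a median of 0.62, beside 34.3% of all tested genes called higher and 34.0% called lower. Without CD24Neg libraries 2 and 8, Atf4 did not pass, and 9 of 16 tested were higher and 3 lower. Trib3 and Chac1 were not tested there. The filter still asked for 10 in 4 libraries, and CD24Neg was left with libraries 4 and 6 alone. Trib3 read 173 and 126 in those libraries and Chac1 36.2 and 14.5. The smaller number of lower genes there thus partly follows from the filter. Phgdh, the first enzyme of serine synthesis, read 396, 533, 382 and 414 in the CD24Mid libraries and 34.3, 49.4, 21.3 and 41.3 in the CD24Neg libraries. It was 12.1-fold higher in CD24Mid (log2 3.59 ± 0.25 (SE), adjusted p = 1.16e-06; limma), and Shmt2, which converts serine in mitochondria, was 4.29-fold higher. Trib3, an inhibitory pseudokinase induced by ATF4, read 10.3, 4.37, 4.08 and 3.91 in the CD24Mid libraries and 155, 173, 126 and 130.0 in the CD24Neg libraries. It was 25.4-fold lower in CD24Mid (log2 -4.67 ± 0.33 (SE), adjusted p = 1.28e-06, limma). Since 3 of its CD24Mid values lay under the filter of 10 and the other just above, it entered the test mainly through its CD24Neg values. A call in the lower direction was thus largely set by the filter.

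Further genes of that list were chosen after their values were seen. Asns, for asparagine synthesis, had means of 565 ± 82.8 against 267 ± 28.3 (SD, n = 4 each) and was higher, beside Nars, which did not pass. Slc7a5, a transporter of large neutral amino acids, was higher by 2.81 on the log2 scale, while Slc3a2, its partner chain, was lower (log2 difference -1.74). Ddit3, a stress-induced transcription factor, and Chac1, which breaks down glutathione, were lower (log2 differences -2.06 and -2.15). All CD24Mid values of Chac1, 3.44 to 7.91, were under the filter of 10, so it entered only through its CD24Neg values and had to differ. Atf4 itself had means of 2739 ± 301 against 3716 ± 571 and was lower (log2 -0.43 ± 0.13 (SE), adjusted p = 0.0148; limma), a call lost under quantile normalization and both scalings to totals, with the sign turned under quantile normalization and under totals without the mitochondrially encoded genes. Cebpb and Sesn2 did not pass, with log2 differences of -0.30 and -0.026. Asns, Chac1, Slc7a1 and Trib3 hold the amino acid response element in the same promoter window as Aars, Gars, Iars, Tars and Yars, and among these 9 genes values were higher, lower and not passing.

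**Figure D5:**
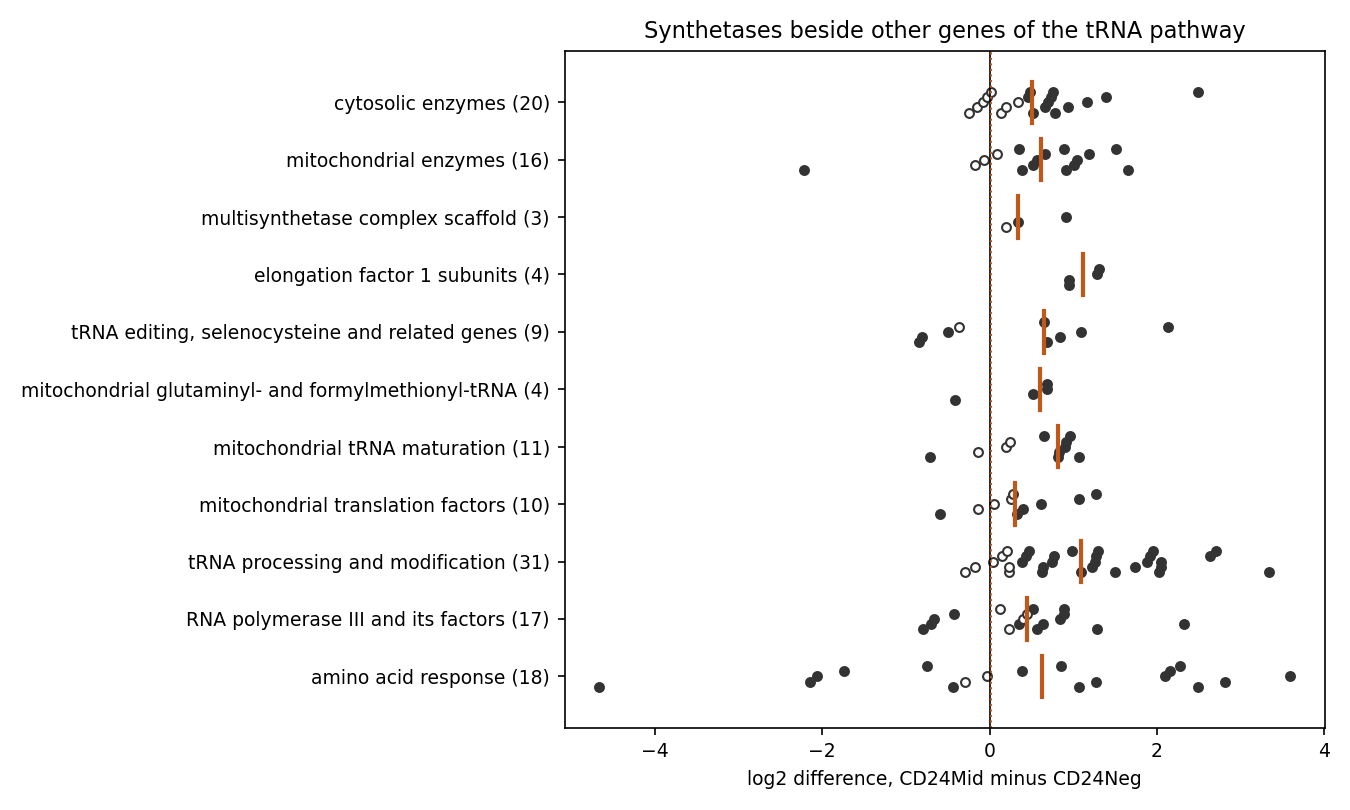
Log2 difference (CD24Mid minus CD24Neg) of each tested gene in the 2 synthetase classes and 9 lists of the tRNA pathway, with the number tested in parentheses; filled points passed an adjusted p of 0.05, open points did not, and the bar is the list's median. Medians lie between 0.30 and 1.12 in all 11 rows, and the amino acid response genes are spread from -4.67 to 3.59.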

How the data were processed

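Total RNA of 8 sorted samples was sequenced after TruSeq RNA preparation, per the labels' protocols. The authors deposited 1 signal value per gene and library, an expression estimate with decimals that was already scaled between libraries (median ratio 1.0104 in 7 libraries, 1.0102 in CD24Neg library 6). Bowtie 0.12.8 and the build NCBIM37 are named in the submitters' processing notes; the sources used here name no annotation release, scaling tool or strand setting. Because these values are not counts, no count model was used. Groups come from the sample titles. Genes reaching 10 in 4 or more libraries (12892 of 23318, all 36 members) were centred on the median ratio and tested as log2(value + 0.5) with limma 3.58.1 (R 4.3.3; trend and robust), CD24Mid minus CD24Neg, with Benjamini-Hochberg adjustment over all tested genes at 0.05. Fold changes are on the log2(value + 0.5) scale. The model was also run on simulated data with far fewer changed genes than here, so that run does not check these calls. Ratios used exact permutation tests (scipy 1.17.1).

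GENCODE M21 gave symbols for 21223 identifiers; Prorp, Adat3, Gtf3c2 and Gcn1 were not matched. Lengths are those of the longest consensus coding mRNA, and shared stretches were found with blastn 2.17.0. Promoters are from RefSeq (GRCm38.p6), a later build than that of the files, and none of their coordinates was joined to the files. Depth was estimated from the step between the lowest values (0.584 to 0.694 in CD24Mid, 1.07 to 1.79 in CD24Neg), assuming that 1 step is 1 read. The members, lists and tests were chosen with earlier results of these data known. All 36 members were accounted for: values in every library were printed for the 4 largest differences in each direction and class, both members of the 3 highest and 3 lowest pairs, and members that did not pass. In each list, up to 3 genes by adjusted p, up to 2 of the direction these missed and, where 3 or fewer, those that did not pass were named. A gene that this rule selects is not reported here. Alternatives were other scalings, filters, pseudocounts, variance models and leaving out each library.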

Additional observations from a re-analysis of the deposited data

Results flagged for a closer look

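In each group of 4 libraries, the gap between an extreme library and its nearest neighbour was compared with the whole range of the group, for every member, 72 groups in all. Chance marks about 1 group in 20, and 2 of the 72 were marked. Fars2 in CD24Neg library 2 was 548, while the other 3 CD24Neg libraries lay between 435 and 446. Rars2 in CD24Neg library 6 was 689, while the others lay between 539 and 553. CD24Neg library 2 also held the most T cell marker RNA, 7082 in sum, against 1217 in library 6; its part in these values was not tested.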

How the results depend on the processing

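No paired analysis was made, because the groups share no replicate number (1, 3, 5 and 7 against 2, 4, 6 and 8). No label says which libraries of the groups belong together. If they do belong together in pairs, the tests used here ignored that pairing. Of 36 members, 22 kept their direction and side of the threshold under every scaling, filter, pseudocount and variance model tried and with each library left out. Scaling changed the counts: with totals without the mitochondrially encoded genes, 6740 of all tested genes were higher and 2711 lower, and with totals without the 20 most abundant genes 6534 were higher and 2831 lower. The median log2 difference of the cytosolic enzymes was then 0.97 and 0.93, and 0.79 under quantile normalization. That of the mitochondrial enzymes was 1.08 and 1.04, and 0.76 without CD24Neg libraries 2 and 8, an alternative chosen after seeing the data. Over all tested genes the median was 0.49 and 0.45 under the 2 totals and 0.07 under quantile normalization. Without CD24Neg libraries 2 and 8 it was 0.02. Mitochondrial enzymes called lower numbered 0 under quantile normalization and 0 without Lars2, also added after seeing the data. Cytosolic enzymes called lower ranged from 0 to 1 when single libraries were left out; the 1 was Nars without CD24Neg library 4.

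Signs turned mostly for members near 0. Under quantile normalization, totals without mitochondrially encoded genes and totals without the top 20 genes, the log2 difference was 0.34, 0.44 and 0.40 for Aars, 0.27, 0.22 and 0.18 for Nars, and 0.28, 0.39 and 0.35 for Sars. Under the last 2 it was 0.31 and 0.28 for Cars, 0.39 and 0.36 for Cars2, and 0.29 and 0.25 for Hars2. Without CD24Neg libraries 2 and 8 it was 0.12 for Aars, 0.17 for Cars and -0.0048 for Rars2. Leaving out each library in turn gave -0.12 to 0.029 for Aars, -0.022 to 0.064 for Qars and -0.13 to 0.0055 for Sars. The cause was not tested. CD24Neg values rest on coarser steps per read, which limits genes at low values such as Pars2 and Mars2 most.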
